A study of Mus musculus with 8 samples.

Results

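Of the 5521 Foxp3 binding sites that the authors listed in 3 classes, 938 had reads in all 8 libraries of the study, and the difference between R397W and wild-type (WT) Foxp3 was measured at these fully covered sites. They were chosen by their own values, as the sites whose normalised read count (reads divided by a factor of the library) was above 0 in every library, so that sites without reads in 1 library could not set a result. They comprised 815 of the 3847 common sites, 58 of the 727 cTreg-specific sites and 65 of the 947 eTreg-specific sites. The class names are the authors', where eTreg stands for effector regulatory T cells. The cells were regulatory T (Treg) cells sorted fresh as CD4+hCD2+GFP- from the spleen and lymph nodes of C57BL6/J mice, whose age the sources used here do not state. The WT group had the genotype Foxp3WT-IRES-hCD2/Foxp3-IRES-GFP and the mutant group Foxp3R397W-IRES-hCD2/Foxp3-IRES-GFP. Both groups thus came from mice that also carried a Foxp3-IRES-GFP allele, and the gate kept cells marked by hCD2 and lacking GFP. Each genotype had 2 libraries made with a rabbit anti-Foxp3 antibody and 2 made with normal rabbit IgG, which served as the background. The labels do not say that libraries 1 and 2 came from separate mice, so p-values measure only the spread between these libraries, which may be technical.

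Foxp3 is the transcription factor on which Treg cells depend for their identity and their restraint of other T cells. It contacts DNA through a forkhead domain, and the arginine that R397W replaces with tryptophan lies in that domain. Forkhead proteins recognise short motifs around TGTTT, and Foxp3 also works with partners such as Runx, Ets, NFAT and Ikaros family factors. In CUT&Tag the antibody brings a Tn5 transposase to chromatin, which cuts and tags nearby DNA. An IgG library made the same way shows where cuts fall without a specific antibody, and open chromatin such as active promoters takes up many such cuts.

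Fully covered common sites lay near gene starts far more often than the other common sites, and eTreg-specific ones did so about as often as theirs. Of the 815 common sites, 365 (44.8%) had their centre within 1 kb of an annotated start of a protein-coding gene, against 186 (6.13%) of the 3032 other common sites, and the median distance to a start was 2.13 kb against 30.4 kb. The share was 5 of 58 (8.62%) against 12 of 669 (1.79%) among cTreg-specific sites and 2 of 65 (3.08%) against 22 of 882 (2.49%) among eTreg-specific sites. Starts came from a RefSeq table holding 79.9% of 21900 protein-coding genes, so 94 common sites at an end of a gene missing from that table were kept apart. The other 356 common sites are called sites away from starts, and 222 of them lay inside gene bodies. A gene was found for 919 of the 938 sites, and these sites belonged to 835 genes. As many as 3 sites lay at each of Runx1, Smad7, Tiam1, Pik3r5, Rere, Stk39, Nfkb1 and Chd7. All but 1 of the 938 sites were 400 bp wide.

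**Figure D1:**
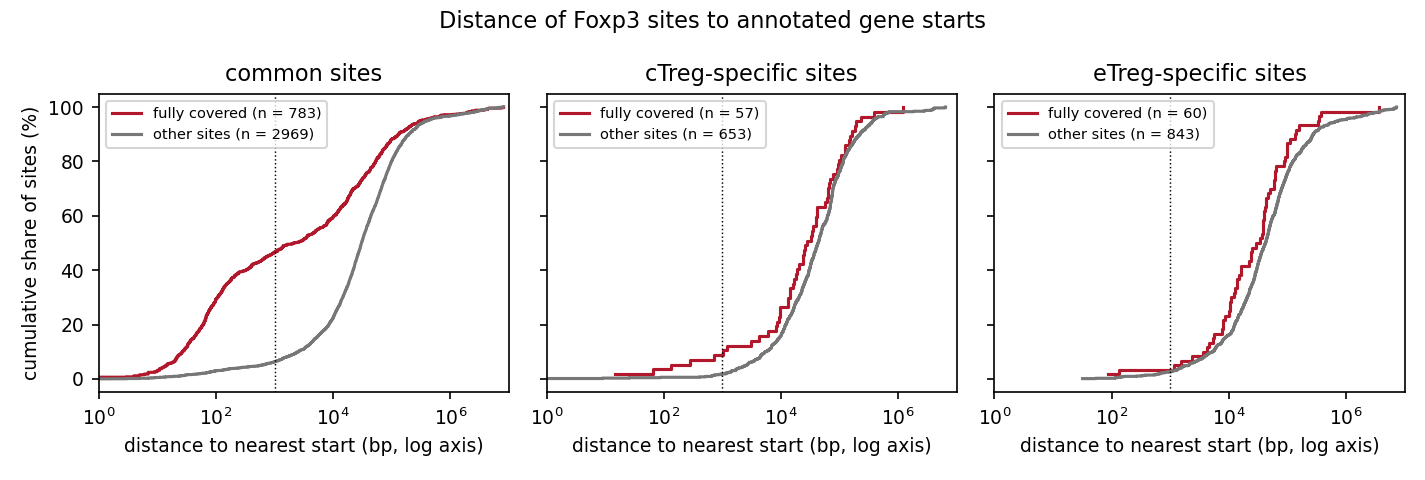
Cumulative share of sites (%, y axis) against the distance from the site centre to the nearest annotated gene start (bp, log x axis), for fully covered sites (red) and the other sites of each class (grey), with a dotted line at 1 kb. At that line the red curve of the common sites stands far above the grey one, while in the eTreg-specific class the curves lie close together.

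The promoters of 4 genes at fully covered sites are given as examples, picked by genotype difference or by gene and not as typical ones. Each is printed as the 250 bases before the start (RefSeq, GRCm38.p6), with the forkhead letters TGTTT, or AAACA on the other strand, in capitals. Zfyve1 (chr12:83597223-83597472, minus strand) and Golph3l (chr3:95588684-95588933, plus strand) stand at the start sites with the lowest p-values of those higher in R397W. Ndufs6 (chr13:73328483-73328732, minus strand) stands at the site with the most negative fitted difference. Runx1 (chr16:92826075-92826324, minus strand), which encodes a Foxp3 partner, has fully covered sites on both sides of the printed start.
Zfyve1: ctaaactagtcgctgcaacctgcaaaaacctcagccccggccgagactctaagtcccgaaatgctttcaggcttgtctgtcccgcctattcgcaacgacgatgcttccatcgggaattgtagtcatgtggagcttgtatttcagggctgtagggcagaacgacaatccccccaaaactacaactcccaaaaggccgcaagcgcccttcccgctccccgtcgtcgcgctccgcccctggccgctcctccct
Golph3l: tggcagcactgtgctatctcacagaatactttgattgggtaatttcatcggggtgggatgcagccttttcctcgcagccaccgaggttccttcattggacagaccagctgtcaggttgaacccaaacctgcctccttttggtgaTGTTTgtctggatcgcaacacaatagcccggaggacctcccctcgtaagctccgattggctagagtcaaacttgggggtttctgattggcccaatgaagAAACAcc
Ndufs6: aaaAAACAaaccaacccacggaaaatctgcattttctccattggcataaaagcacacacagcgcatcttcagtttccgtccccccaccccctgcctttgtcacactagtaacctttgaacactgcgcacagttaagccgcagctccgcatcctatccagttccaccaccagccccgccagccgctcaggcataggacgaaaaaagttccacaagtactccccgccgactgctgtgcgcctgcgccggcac
Runx1: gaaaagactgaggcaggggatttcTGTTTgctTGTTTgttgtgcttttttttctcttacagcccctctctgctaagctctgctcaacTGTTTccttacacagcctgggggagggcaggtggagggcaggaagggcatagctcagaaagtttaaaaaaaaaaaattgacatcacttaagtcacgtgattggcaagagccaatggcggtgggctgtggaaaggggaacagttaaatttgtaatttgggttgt
The capitals appear nowhere in the Zfyve1 promoter, at 2 places in Golph3l, at 1 in Ndufs6 and at 3 in Runx1. GC content was 58% in Zfyve1, 51.6% in Golph3l, 55.2% in Ndufs6 and 45.6% in Runx1. Each lay below the median of 60.4% over all promoters overlapped by a fully covered site. No genome sequence was used here, so the sites away from starts are given by position only.

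Among all promoters of this length, those overlapped by a fully covered site were rich in G and C. The median GC content was 60.4% over the 382 promoters overlapped by a fully covered site, 50.0% over the 158 overlapped only by another Foxp3 site and 55.6% over all 21238 promoters in the table. The forkhead letters TGTTT, searched on both strands, were present in 41.1%, 72.2% and 41.9% of these promoters respectively. The longer forkhead core TGTTTAC, which contains TGTTT, was found in 4.97%, 10.8% and 2.61%. The ETS letters CCGGAAG were in 21.2%, 15.8% and 8.99%, and the SP letters GGGCGG in 61.0%, 25.3% and 42.6%. The Runx letters TGTGGTT were in 4.19%, 5.06% and 3.82%, and the AP-1 letters TGANTCA in 4.19%, 6.96% and 6.14%. The CCAAT letters bound by NFY were in 27.2%, 27.2% and 35.4%, and the CRE letters TGACGTCA in 2.62%, 0.633% and 1.93%. A match is a description of the letters and not a bound site.

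Depth differed between libraries and so did the share of reads that the fully covered sites took. WT Foxp3 libraries 1 and 2 had 86484 and 225851 reads at these sites, and the R397W pair had 39511 and 159344. The WT IgG pair had 142372 and 201375, and the R397W IgG pair 42904 and 164125. Reads at the fully covered sites made up 30.9% to 69.9% of a library's reads over all listed sites, with medians of 35 to 181 reads per site. At 83 sites at least 1 library had a single read, and 666 (71.0%) had at least 10 reads in every library, 587 common, 38 cTreg-specific and 41 eTreg-specific. The median of a site's lowest value was 22.7, against a median lowest value above 0 of 11.6 at the 745 sites with reads in 7 libraries. Those 745 sites lacked reads only in WT IgG 2 at 336 sites, in R397W IgG 2 at 197, in R397W Foxp3 2 at 145, in WT Foxp3 2 at 46, and in the other 4 libraries at 0 to 11. A site emptied in an R397W Foxp3 library therefore cannot be among the 938. The Foxp3 gene itself has 2 listed sites, both common, and neither was fully covered. The one 170 bp from its start had reads in 3 libraries, with values of 64.3 and 15.8 in WT Foxp3 and 5.29 in WT IgG 1. It had 0 in WT IgG 2 and in all R397W libraries, Foxp3 and IgG. The one 3645 bp from its start (chrX:7583928-7584328) had Foxp3 values of 212 and 233 (WT) and 76.1 and 175 (R397W) beside IgG values of 194 and 29.9 (WT) and 303 and 0 (R397W).

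The scaling fixes the overall level of these sites. In each of the 3 deposited tables the fully covered sites gave every library the same median ratio to their geometric mean, with a largest gap of 8.16e-10 on the log2 scale. A gain or loss of R397W signal shared by all of them is therefore removed, and what can be compared is 1 site with another, or 1 set of sites with another within a library. Mean normalised read counts over the common sites were 112 ± 2.69 in WT Foxp3 and 111 ± 2.39 in R397W Foxp3 (SD, n = 2, exact permutation p = 0.667). Over the cTreg-specific sites they were 90.3 ± 6.60 and 102 ± 13.7, and over the eTreg-specific sites 87.8 ± 3.47 and 83.5 ± 10.2. An exact permutation test of 2 libraries against 2 cannot give a p below 0.333.

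No fully covered site passed the adjusted test of R397W against WT Foxp3. The limma test on log2(normalised read count + 1), adjusted by Benjamini-Hochberg over all 5521 sites, called 0 of the 938 sites at 0.05, as it called 0% of all sites, and the lowest adjusted p was 1. At an unadjusted p under 0.05 there were 10 sites, 7 lower and 3 higher in R397W, against 0.326% of all sites (0.272% lower and 0.0543% higher). The balance of directions depended on single libraries, with 4 lower and 27 higher without WT Foxp3 1 and 75 lower and 17 higher without R397W Foxp3 1. edgeR's quasi-likelihood test on the recovered reads called 0 and had 14 sites at an unadjusted p under 0.05 (0.725% of all sites), and DESeq2 called 0 and had 2 (1.09% of all sites). Fitted differences were lower at 472 sites and higher at 466, with a median of -0.02 log2 and quartiles of -0.70 and 0.55. Their median standard error was 0.90. The scaling over these same sites largely sets this balance, so it is not a result about the genotypes. With TMM scaling of the recovered reads 520 sites were lower. With libraries scaled to equal totals 433 were lower and 505 higher. The median fitted difference over all 5521 sites was -0.39 under the deposited scaling. Both R397W libraries lay below both WT libraries at 149 sites (15.9%) and above them at 134 (14.3%), and the corresponding shares of all sites were 12.6% and 6.43%. Among the 1847 sites above 0 in the 4 Foxp3 libraries these shares were 14.7% and 13%. In the IgG libraries 145 sites lay lower without overlap and 152 higher, against 5.51% and 11.3% of all sites, and limma called 0 sites, as it called 0% of all sites, with 19 at an unadjusted p under 0.05 (0.471% of all sites). The test of the genotype difference in Foxp3 minus that in IgG called 0 sites, as it called 0% of all sites, with 34 at an unadjusted p under 0.05 (1.65% of all sites) and a lowest limma adjusted p of 0.227.

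Genotype ratios were spread over the sites less widely than ratios between replicates of 1 genotype in number 1, and slightly more widely in number 2. The SD over sites of log2 R397W/WT was 0.98 between the Foxp3 libraries numbered 1 and 2.01 between those numbered 2. Between the replicates of 1 genotype it was 1.45 for WT and 1.89 for R397W. Log2 values of WT and R397W Foxp3 correlated at 0.623 in number 1 and 0.332 in number 2. Between the replicates they correlated at 0.466 for WT and 0.288 for R397W. Replicate ratios cross the 2 numbers and genotype ratios do not, so these spreads are not like for like. A difference beyond 2-fold was seen at 25.7% of sites in number 1 and 47.5% in number 2, and at 36.8% and 49.0% between the WT and the R397W replicates. Over the 938 sites the log2 ratios of number 1 and number 2 correlated with Pearson's r = 0.09 and Spearman's rho = 0.11, a description over sites that share their libraries. The same sign was seen at 503 sites (53.6%), with 45 at least 2-fold lower in both numbers and 31 at least 2-fold higher in both. The IgG libraries gave r = 0.08, the same sign at 505 sites, 48 lower and 67 higher. At the 666 sites with at least 10 reads everywhere, the Foxp3 ratios gave r = 0.12 and the same sign at 362 sites (54.4%), 17 lower and 18 higher by at least 2-fold in both numbers.

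**Figure D2:**
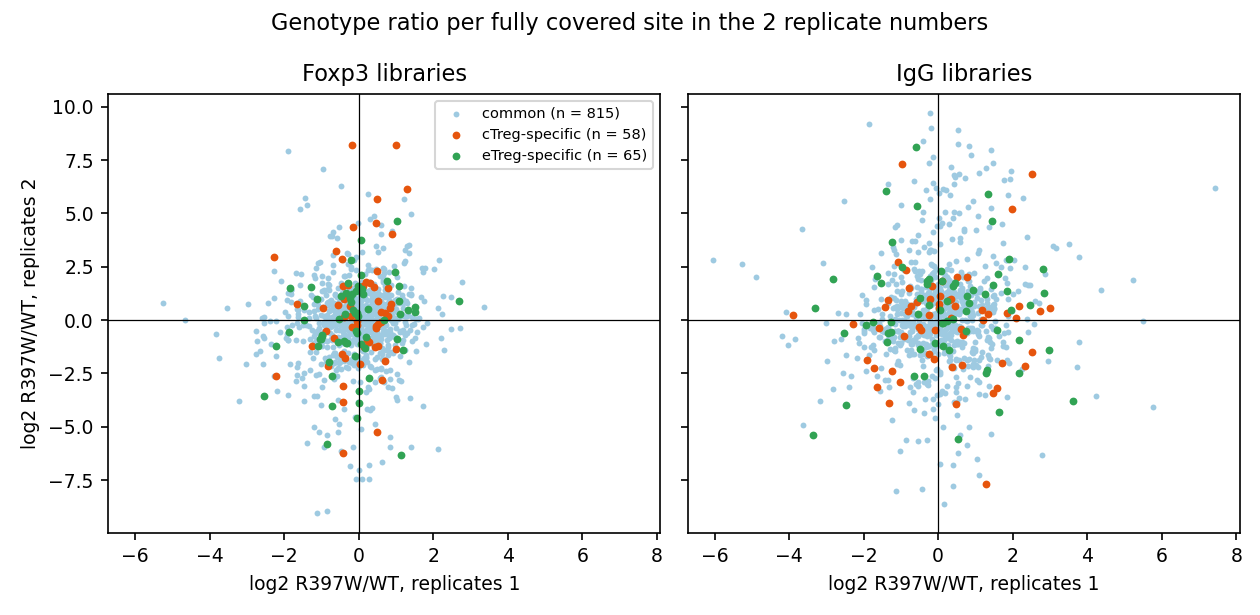
Each point is 1 fully covered site, with its log2 R397W/WT ratio in replicates 1 (x axis) and in replicates 2 (y axis), for Foxp3 (left) and IgG libraries (right), coloured by class (815 common, 58 cTreg-specific, 65 eTreg-specific). Points spread over all 4 quadrants in both panels, with a wider spread on the y axis (SD 2.01 against 0.98 for Foxp3).

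The 10 sites at an unadjusted p under 0.05 were singled out after their values were seen, and in all of them the R397W and WT Foxp3 libraries did not overlap. The 7 lower in R397W all lay away from gene starts, whereas 2 of the 3 higher lay at a start. The site with the lowest p lies inside Heg1 (chr16:33708064-33708464), a transmembrane receptor gene known from blood vessel development. Its normalised read counts were 668 and 794 in WT Foxp3 and 218 and 200.4 in R397W Foxp3, 3.50-fold apart on the mean (731 ± 88.8 against 209 ± 12.4, SD, n = 2). IgG gave 249.8 and 238 (WT) and 258 and 44.5 (R397W), so WT Foxp3 stood above every IgG library and R397W Foxp3 stood below 3 of the 4. The fitted difference was -1.80 log2 (SE 0.37), with a limma adjusted p of 1 and an unadjusted p of 0.00229.

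A site inside Chd7 (chr4:8811025-8811425), which encodes a chromodomain chromatin remodeller, had 435 and 404 in WT Foxp3 against 94.5 and 40.6 in R397W Foxp3. Its IgG values of 125 and 63.2 (WT) and 140.3 and 245 (R397W) were higher in the mutant. The eTreg-specific site 16143 bp from Noxa1 (chr2:25111148-25111548), a gene for an activator of NADPH oxidase, had 220.0 and 245 in WT Foxp3 and 37.7 and 21.1 in R397W Foxp3, 7.90-fold apart on the mean. Its IgG values of 150.3 and 74.0 (WT) and 59.5 and 48.5 (R397W) were lower in the mutant too. Inside Zswim6 (chr13:107831199-107831599), a zinc finger gene, WT Foxp3 gave 166 and 264 and R397W Foxp3 44.6 and 23.2, with IgG at 33.7 and 28.4 (WT) and 20.4 and 80.8 (R397W). At the site 348 bp from the nearer end of Slc37a3 (chr6:39334222-39334622), a solute carrier gene, WT Foxp3 gave 369.9 and 271 and R397W Foxp3 134 and 19.3. The other lower sites lay inside Slc12a8 and Eps15l1, the latter a gene for an endocytic adaptor. In Slc12a8, another solute carrier gene, 125 and 170.4 stood against 21.0 and 41.2, and in Eps15l1 95.8 and 207 against 36.8 and 3.87. The fitted differences of these 6 sites ran from -3.39 to -2.27 log2, with unadjusted limma p from 0.00388 to 0.0489.

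The sites higher in R397W included the promoters of 2 genes of membrane traffic. At Zfyve1 (site chr12:83597089-83597489, centre 67 bp from the start), which encodes a FYVE-domain protein of endomembranes, Foxp3 libraries gave 83.7 and 69.4 (WT) and 276 and 329 (R397W), 3.95-fold apart on the mean. IgG gave 172 and 61.2 (WT) and 355 and 127 (R397W), so within each number the background was also higher in the mutant. At Golph3l (site chr3:95588668-95589068, centre 66 bp from the start), which encodes a Golgi phosphoprotein, the values were 112 and 28.9 in WT Foxp3 and 286 and 327 in R397W Foxp3, with IgG at 123 and 108 (WT) and 192 and 107 (R397W). The fitted differences were 1.97 (SE 0.55) and 2.40 log2 (SE 0.79), with a limma adjusted p of 1 at both and unadjusted p of 0.0106 and 0.0206. The third site lay 26246 bp from Trim33, a ubiquitin ligase gene of TGF-beta signalling, with 40.0 and 8.38 in WT Foxp3 and 105 and 259.6 in R397W Foxp3.

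**Figure D3:**
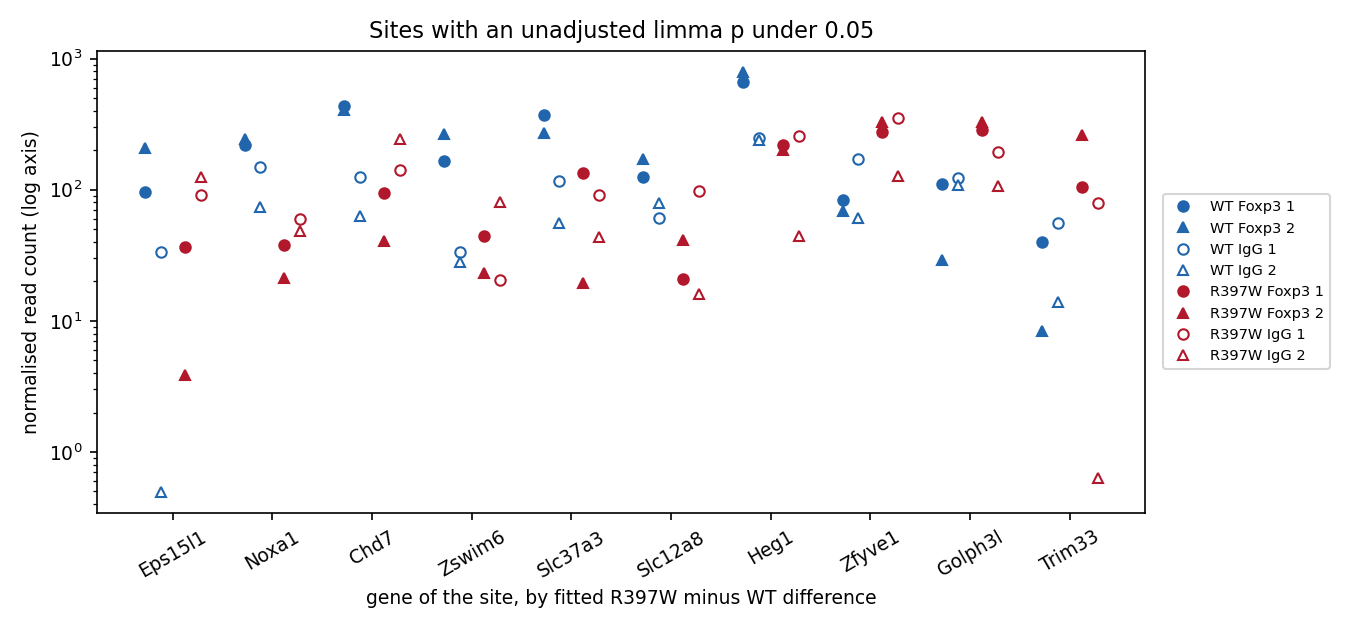
Normalised read counts (log y axis) in each of the 8 libraries at the 10 sites with an unadjusted limma p under 0.05, ordered by fitted R397W minus WT difference and named by gene. Filled symbols are Foxp3 and open symbols IgG libraries, blue WT and red R397W, circles replicate 1 and triangles replicate 2. The filled blue and red symbols do not overlap at any of these sites, while open symbols reach or pass them at several.

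The largest fitted differences among sites without overlap often rested on few reads in 1 library. The site 179 bp from the start of Ndufs6, a subunit gene of respiratory complex I that lies next to the mitochondrial ribosomal gene Mrpl36, had 216 and 337 in WT Foxp3 and 99.8 and 0.644 in R397W Foxp3, where 0.644 is 1 read. The site inside Fam169b had 189 and 318 against 105 and 0.644. Neither passed an unadjusted p of 0.05 in limma (0.0558 and 0.0667). The lowest common sites by this measure also included the Eps15l1 site and a site with no gene within 100 kb (chr13:37541673-37542073), at 84.9 and 118 in WT Foxp3 and 44.6 and 1.93 in R397W Foxp3. The highest were the Trim33 site and sites at Nrde2, a gene of nuclear RNA surveillance, at Kbtbd6 and at Smarcd1, a subunit gene of the SWI/SNF remodeller. Nrde2 had 47.3 and 1.86 in WT Foxp3 and 110.3 and 94.1 in R397W Foxp3, and Smarcd1 had 44.9 and 10.7 against 84.0 and 191.

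Among cTreg-specific sites the lowest lay near Map2k2, a MAP kinase kinase gene, with 74.9 and 106 in WT Foxp3 and 55.6 and 1.42 in R397W Foxp3, and at Cyrib, with 23.6 and 52.1 against 5.06 and 8.51. The highest lay in Dock4, with 32.0 and 0.516 against 64.0 and 154, and in Klhdc1, with 33.7 and 3.09 against 82.6 and 223. In these 4 sites 1 or more Foxp3 libraries had between 1 and 6 reads. Among eTreg-specific sites the lowest besides the Noxa1 site lay 11609 bp from Cxcr5, the receptor that guides lymphocytes to follicles, with 49.4 and 43.0 in WT Foxp3 and 27.2 and 0.781 in R397W Foxp3. The highest lay in Ldlrad4, an inhibitor gene of TGF-beta signalling, with 74.5 and 8.06 against 151 and 199, and 10546 bp from Atf3, a stress-induced ATF family gene, with 113 and 9.21 against 117 and 126. At these last sites WT Foxp3 1 stood well above WT Foxp3 2.

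Setting each Foxp3 library against the IgG library of the same genotype and number separated common sites by position, a split chosen after the data were examined. The labels do not say that the Foxp3 and IgG libraries of 1 number came from the same cells, so the pairing behind each ratio, its SD and the counts per number rests on the titles. The level of both positions is relative to all 815 common sites, whose median the scaling fixes. At the 356 common sites away from starts the mean log2 Foxp3/IgG was 0.61 and 1.06 (WT) and 0.17 and 0.04 (R397W). The group means were 0.83 ± 0.32 and 0.10 ± 0.09 (SD, n = 2), a difference of -0.73 with no overlap of the genotypes and an exact permutation p of 0.333, the smallest this design allows. At the 365 common sites within 1 kb of a start the values were -0.21 and -0.08 (WT) and -0.02 and -0.10 (R397W), which overlapped (difference 0.09, exact permutation p = 0.667). Over the median site at starts the values were -0.30 and -0.26 (WT) and -0.09 and -0.06 (R397W), which did not overlap (difference 0.21, exact permutation p = 0.333), and over start sites with at least 10 reads in every library the mean difference was 0.24 (exact permutation p = 0.333). In WT the values away from starts lay above those at starts, and in R397W the means of both positions lay between -0.10 and 0.17. Sites away from starts gave 0.62 and 0.99 in WT against 0.11 and -0.11 in R397W inside genes (222 sites), and 0.59 and 1.18 against 0.27 and 0.29 outside genes (134 sites). Over sites with at least 10 reads in every library the difference away from starts was -0.30, and for the median site it was -0.49.

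Taking the sites away from starts minus those at starts cancels the library factors. This difference in mean log2 Foxp3/IgG was 0.82 and 1.14 (WT) and 0.19 and 0.14 (R397W), or 0.98 ± 0.23 against 0.17 ± 0.03 (SD, n = 2, exact permutation p = 0.333). Both antibodies contributed to it. In the Foxp3 libraries alone, sites away from starts minus sites at starts came to 0.64 and -0.29 (WT) and 0.25 and -0.63 (R397W), with R397W minus WT at -0.39 in number 1 and -0.34 in number 2, with overlapping genotypes (exact permutation p = 0.667). In the IgG libraries it came to -0.18 and -1.44 (WT) and 0.06 and -0.77 (R397W), higher in R397W by 0.24 and 0.66 (exact permutation p = 0.667). The sites away from starts took 61.2% and 51.3% of the reads of both positions in the WT Foxp3 libraries, against 54.6% and 43.7% for R397W. In IgG they took 49.0% and 38.0% (WT) and 51.2% and 41.5% (R397W). On the mean, R397W minus WT was -0.36 in the Foxp3 libraries and 0.45 in the IgG libraries, so the IgG libraries made up more of the difference over IgG than the Foxp3 libraries did.

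**Figure D4:**
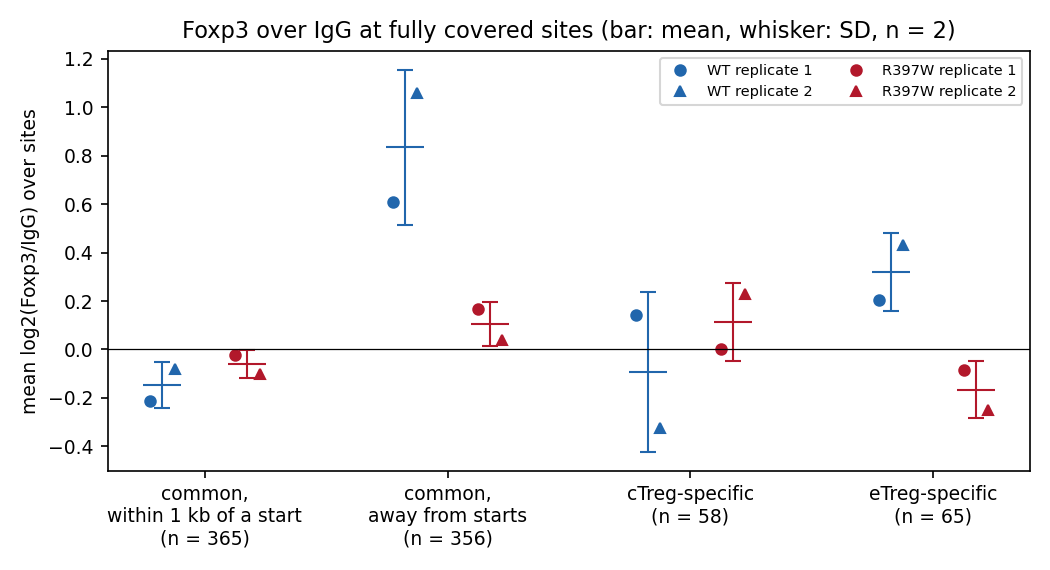
Mean log2(Foxp3/IgG) over fully covered sites (y axis) in each genotype and replicate number, for common sites at starts (365), common sites away from starts (356), cTreg-specific (58) and eTreg-specific sites (65), with bars for the mean and whiskers for the SD (n = 2). WT (blue) lies at 0.61 and 1.06 away from starts, above R397W (red) at 0.17 and 0.04, and the genotype means overlap at starts and at cTreg-specific sites. The level of each specific class is set by its own scaling.

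The same Foxp3/IgG ratios were also counted site by site, which is no separate line of evidence. WT IgG 2, a divisor in the WT counts, had a single read at 36 of the 938 sites and under 10 reads at 76. Its mean log2 value at common sites away from starts was 4.99, against 5.69 in R397W IgG 2. The counts were not repeated at sites with at least 10 reads in every library. At least 2-fold more Foxp3 than IgG signal in both numbers was seen at 54 of the 356 sites (15.2%) in WT and at 22 (6.18%) in R397W, with 1 site in both genotypes. At starts the numbers were 10 of 365 (2.74%) in WT and 18 (4.93%) in R397W. Over all 938 sites they were 75 (8.0%) and 56 (5.97%), with 3 sites in both genotypes. In the Foxp3 comparison of genotypes, the common sites away from starts had 65 sites lower (18.3%) and 36 higher (10.1%) without overlap, and those at starts had 42 lower (11.5%) and 68 higher (18.6%), against 15.9% and 14.3% of the 938 sites and 12.6% and 6.43% of all sites. The IgG libraries had 40 lower (11.2%) and 66 higher (18.5%) away from starts and 71 lower (19.5%) and 52 higher (14.2%) at starts, against 5.51% and 11.3% of all sites. The median fitted Foxp3 difference was -0.20 log2 away from starts and 0.11 at starts, and limma called none of these sites.

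The strongest sites in WT Foxp3 were not those that stood furthest above IgG. The highest common sites lay 17823 bp from Ramp3, a gene for a receptor activity-modifying protein, in Heg1 and in Zbtb7a, a zinc finger repressor gene. Ramp3 had Foxp3 values of 849 and 1093 (WT) and 814 and 908 (R397W), which overlapped, beside IgG values of 831 and 269 (WT) and 686 and 639.6 (R397W). Zbtb7a had 509 and 845 in WT Foxp3 and 575 and 756 in R397W Foxp3, below WT IgG at 976 and 1200.2. The highest cTreg-specific sites lay near Tcf7, which encodes the resting T cell factor TCF1, and in Rasa3 and Susd1, and the highest eTreg-specific sites in Alpk2, Plekha2 and Galnt9. Alpk2 had 254 and 433 in WT Foxp3 and 126 and 231 in R397W Foxp3, against IgG at 113 and 52.2 (WT) and 91.7 and 167 (R397W). Susd1 had 165 and 342 against 128 and 99.98, and Galnt9 had 202 and 377 against 189 and 116, also without overlap. None of these differences passed the test. The sites were ranked by WT Foxp3 values alone, which favours WT above R397W, so their separation is not a measure of the genotype.

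By the lower of the 2 WT Foxp3/IgG ratios the leading common sites were those near Fosl2, in Cuedc1 and near Ccn6, all with WT IgG values under 10. In each class this ranking used WT libraries alone and picks low WT IgG values. A smaller ratio in R397W is therefore favoured by the choice of sites and is not a measure of the genotype. The site 3340 bp from Fosl2, a gene of an AP-1 subunit, had 20.6 and 21.0 in WT Foxp3 over 1 read in each WT IgG library, and 49.9 and 39.3 in R397W Foxp3 over 113 and 36.9 in R397W IgG. Cuedc1 had 200.1 and 81.0 in WT Foxp3 against IgG at 9.91 and 2.99, and 99.8 and 5.15 in R397W Foxp3 against 49.8 and 16.5. Ccn6 had 101 and 68.9 against 3.30 and 7.46 in WT, and 31.5 and 36.7 against 45.3 and 57.9 in R397W. The cTreg-specific sites were one with no gene within 100 kb (chr10:118633455-118633855) and those at Coro1c, a gene of an actin-binding coronin, and 4930512M02Rik. Coro1c had 74.1 and 65.5 in WT Foxp3 over 20.6 and 13.5, and 42.1 and 14.9 in R397W Foxp3 over 73.5 and 17.0. The eTreg-specific sites lay in Itpkb, a kinase gene of inositol phosphate signalling in lymphocytes, Stx6 and Tasp1. Itpkb had 162 and 175 in WT Foxp3 over 13.2 and 13.1, and 169.7 and 82.0 in R397W Foxp3 over 164 and 0.952, where 0.952 is 1 read.

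Reads of 1 class relative to another were compared within each library, where factors cancel. The log2 ratio of eTreg-specific to cTreg-specific reads was 0.12 and 0.52 in WT Foxp3 and -0.43 and -0.28 in R397W Foxp3, a difference of -0.67 without overlap (exact permutation p = 0.333). IgG gave 0.33 and 0.20 (WT) and -0.05 and 0.02 (R397W), a difference of -0.28, also without overlap (exact permutation p = 0.333). The ratio of eTreg-specific to common reads was -3.53 and -3.71 in WT Foxp3 and -3.84 and -4.24 in R397W Foxp3, a difference of -0.42, whereas IgG, at -3.93 and -4.28 (WT) and -3.94 and -4.06 (R397W), overlapped with a difference of 0.11. The Foxp3 difference was -0.22 without R397W Foxp3 2, and with mean log2 reads in place of sums it was -0.43 with overlapping genotypes (exact permutation p = 0.667). The ratio of cTreg-specific to common reads overlapped in Foxp3 (difference 0.25, exact permutation p = 0.667) and was higher in R397W by 0.38 in IgG without overlap (exact permutation p = 0.333). Levels of 1 whole class are not free in this way, since each class has its own scaling, which fixes the median ratio over these same sites. They are given as values only. Mean log2 Foxp3/IgG over the 65 eTreg-specific sites was 0.20 and 0.43 (WT) and -0.08 and -0.25 (R397W), and over the 58 cTreg-specific sites 0.14 and -0.32 (WT) and 0.00 and 0.23 (R397W). Mean IgG values of the eTreg-specific sites were 80.0 ± 1.07 in WT and 111 ± 24.5 in R397W (SD, n = 2).

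**Figure D5:**
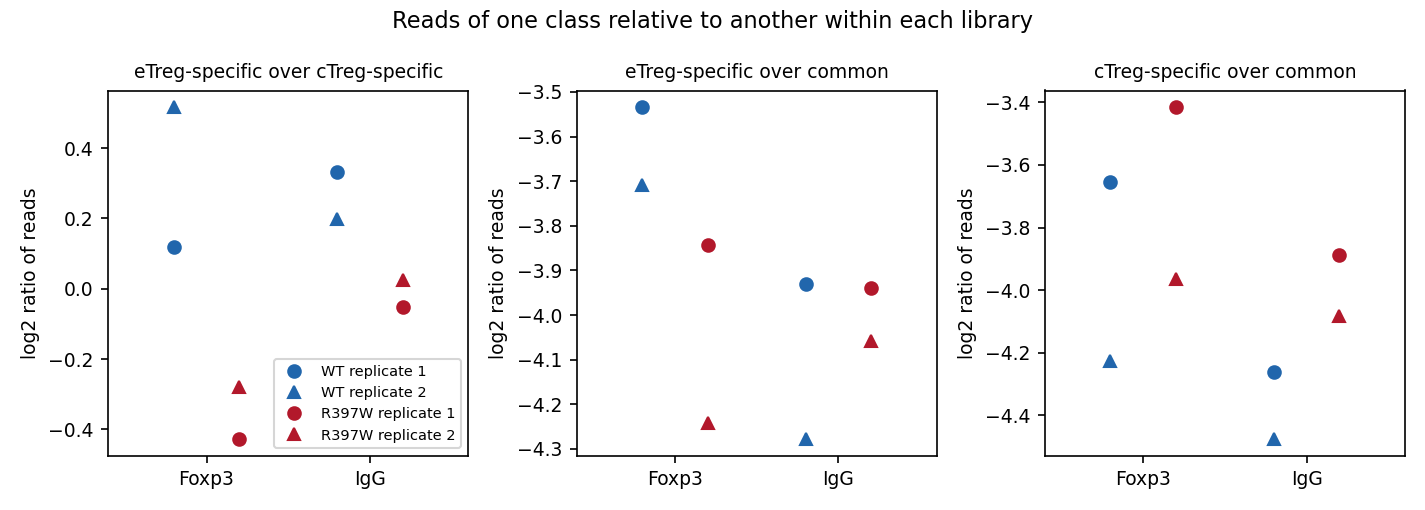
Log2 ratio of summed reads of one class of fully covered sites to another within each library (y axis), for Foxp3 and IgG libraries (x axis), WT in blue and R397W in red, circles replicate 1 and triangles replicate 2. For eTreg-specific over cTreg-specific reads R397W lies below WT in Foxp3 (-0.43 and -0.28 against 0.12 and 0.52) and, by less, in IgG.

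Genes of T cell biology held few fully covered sites. Of 337 listed sites at genes of 8 T cell lists, 39 were fully covered, against 938 of all 5521, and they lay at 30 genes. Within 1 kb of a start lay 7 of the 39, against 372 of the 938. The fitted R397W minus WT differences of the 39 sites were lower at 26 and higher at 13. Over all 5521 sites 3334 were lower and 2123 higher, and over the 938 sites 472 and 466. Their median was -0.34 log2, against -0.02 over all 938 sites and -0.39 over all 5521, and position was not separated from this. None was called and none had an unadjusted limma p under 0.05, and 7 (17.9%) lay lower and 3 (7.69%) higher without overlap, against 15.9% and 14.3% of the 938 sites and 12.6% and 6.43% of all sites. The share of lower sites was thus near the background. Among core Treg genes, 4 of 42 sites were fully covered, at Cd28, Ikzf4, Il2ra and Izumo1r, with a median of -0.53. The site in Il2ra (chr2:11653356-11653756), which encodes the interleukin-2 receptor alpha chain CD25, had 329 and 568 in WT Foxp3 and 228 and 249.98 in R397W Foxp3. Its IgG values were 138 and 70.7 (WT) and 256 and 159.7 (R397W), so that WT Foxp3 stood 2.38-fold and 8.03-fold above IgG and R397W Foxp3 0.893-fold and 1.56-fold. The genotypes did not overlap there, and the fitted difference of -0.85 log2 (SE 0.45) had an unadjusted limma p of 0.104.

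Of 52 sites at genes of Foxp3 partner factors, 9 were fully covered, with a median of -0.58. In the fit 8 of the 9 were lower, against 3334 of all 5521 sites. The site in Hdac7, a class II histone deacetylase gene, had 308 and 727 in WT Foxp3 and 299 and 334 in R397W Foxp3. The Runx1 site centred 283 bp from the printed start had 326 and 132 in WT Foxp3 and 218 and 39.3 in R397W Foxp3, over IgG of 86.6 and 37.3 (WT) and 248.97 and 28.6 (R397W). The 1 site of the list higher in the fit is a cTreg-specific site in Runx1. It had 58.1 and 8.76 in WT Foxp3 and 52.2 and 181 in R397W Foxp3. At each of these Hdac7 and Runx1 sites the libraries of the genotypes overlapped. The one site of this list without overlap lay in Smad3, a mediator of TGF-beta signalling, with 181 and 266 in WT Foxp3 and 113 and 87.0 in R397W Foxp3.

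The naive and resting T cell list had 7 of 74 sites fully covered, 5 lower in the fit (4 when libraries were scaled to equal totals), with a median of -0.47. The cTreg-specific Tcf7 site (chr11:52299652-52300052) had 158 and 427 in WT Foxp3 and 243 and 60.3 in R397W Foxp3, which overlapped. The site near Ccr7, a lymph node homing receptor, had 169.8 and 156 against 44.6 and 101, without overlap. Effector Treg genes had 2 of 60 sites fully covered, at Bcl6 and Cd44, with a median of -0.55. The Bcl6 promoter site, at the gene of a transcriptional repressor active in follicular T cells, had 169 and 263 in WT Foxp3 and 97.1 and 227 in R397W Foxp3. IgG at Bcl6 was 68.7 and 227 (WT) and 129 and 298 (R397W).

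T cell receptor signalling genes had 8 of 73 sites fully covered, 2 lower and 6 higher in the fit and a median of 0.49. The promoter of Lat, the adaptor of the activated receptor, had 152 and 167 in WT Foxp3 and 228 and 135 in R397W Foxp3, which overlapped. The one site of this list without overlap, in the receptor chain gene Cd247, was lower in R397W at 129 and 47.7 against 146 and 167. AP-1, IRF and NFAT genes had 3 of 10 sites, 1 lower and 2 higher in the fit, with a median of 1.06. The 2 higher ones, 3340 bp from Fosl2 and 10546 bp from Atf3, did not overlap, against 14.3% of the 938 sites and 6.43% of all sites. The median is that Fosl2 site, where the fitted IgG difference was 5.38 log2. The site with the highest level, 811 bp from the Fosl2 start, was the lower one, with 246 and 309 in WT Foxp3 and 263 and 195 in R397W Foxp3. NF-kB and TNF receptor genes had 4 of 19 sites, 3 lower, with a median of -0.56. The eTreg-specific Nfkb1 site with the highest Foxp3 level had 157 and 83.3 in WT Foxp3 and 149 and 58.6 in R397W Foxp3. Another eTreg-specific Nfkb1 site was higher in R397W without overlap, with 45.9 and 29.6 in WT Foxp3 and 77.5 and 104 in R397W Foxp3. A common Nfkb1 site was lower without overlap, at 63.1 and 128 against 57.8 and 43.2. So was a site in Nfkbiz, at 95.8 and 142 against 49.9 and 74.1. Cytokine genes of conventional T cells had 2 of 7 sites, both near Ifng. The one 21977 bp from its start had 102 and 102 in WT Foxp3 and 65.6 and 32.2 in R397W Foxp3, without overlap, over IgG of 78.6 and 9.45 (WT) and 74.7 and 24.2 (R397W).

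Genes marking other cells gave no fully covered site. B cell and myeloid cell markers had 0 listed sites, and the CD8 T and NK cell markers had 2, neither fully covered, so binding sites carry no measure of these cells. Housekeeping genes had 2, both fully covered promoters. At Tbp, the TATA-binding protein gene, Foxp3 libraries gave 64.3 and 78.2 (WT) and 116 and 52.8 (R397W), beside IgG at 66.7 and 66.2 (WT) and 52.1 and 55.4 (R397W). R397W Foxp3 1 stood 2.22-fold above its IgG library there, and the other ratios lay between 0.954 and 1.18. At Eef1a1, a gene of a translation elongation factor, Foxp3 libraries gave 74.0 and 53.5 (WT) and 57.8 and 225 (R397W), beside IgG at 163 and 422 (WT) and 56.6 and 89.1 (R397W). The genotypes overlapped at both genes, and the fitted difference at Eef1a1 was 0.85 log2 (SE 0.92).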

How the data were processed

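Foxp3 and IgG CUT&Tag libraries of WT and R397W Treg cells were grouped by their titles, 2 libraries in each of 4 groups. The authors' deposited tables give a normalised signal (normalised read count) per site and library, and their names call it spike-in normalised. Per the submitters' processing notes, tools included DiffBind 3.12.0 and Bowtie2 2.5.2, and genome builds dm6 and mm10. Site coordinates are taken as mm10, and the sources used here do not state the roles of the tools or the calling of sites. Of the signal values above 0, 100% were whole multiples, within their library and table, of the value of 1 read (tolerance 0.01), so whole reads were recovered. The 3 tables were scaled separately, and factor ratios between 2 libraries differed between tables by up to 2.09-fold. Reads are sums over listed sites and not library depths, and the treatment of duplicates is not stated.

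Sites were tested two-sided with limma 3.58.1 (R 4.3.3), with a trended prior, on log2(value + 1) over all 5521 sites at a threshold of 0.05 and with no filter on low values. Fold changes on this scale understate the change at weak sites. edgeR 4.0.16 (quasi-likelihood) and DESeq2 1.42.0 on the recovered reads, with the deposited factors, were alternatives, as were pseudocounts of 0.5 and 5, other scalings, removal of low sites, a replicate block and each library left out in turn. Scripts were tested on simulated data. The libraries simulated for the site tests spread less than the real ones, so they do not measure the power to find changes here. Means over sites were compared by exact two-sided permutation tests over libraries. Genes (RefSeq, GRCm38.p6) were assigned where the body widened by 5 kb held the site centre, otherwise by the nearest gene end within 100 kb.

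The sites and gene lists were chosen with earlier results of these data known. Named sites are, in each class, the extremes of the fitted difference among sites whose genotypes do not overlap (4 lower and 4 higher common sites, 2 and 2 in the other classes), the 3 highest in WT Foxp3 and the 3 highest by the lower WT Foxp3/IgG ratio, and the highest site of each T cell list. Sites with an unadjusted p under 0.05, the other sites of a list named without overlap or beside its highest site, and the split by gene starts were chosen after their values were seen.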

Additional observations from a re-analysis of the deposited data

Results flagged for a closer look

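The mean log2 Foxp3/IgG over the 65 fully covered eTreg-specific sites lay above 0 in both WT pairs (0.20 and 0.43) and below 0 in both R397W pairs (-0.08 and -0.25). It is listed because the signs of the genotypes differ, a difference of signs that was not tested. R397W minus WT was -0.49. The scaling of the eTreg-specific table fixes the median ratio of each library over these same sites, so 0 is set by the scaling, a sign is no gain or loss, and the level of the class cannot be compared between genotypes. The medians over sites were 0.01 and 0.00 in WT and -0.16 and -0.38 in R397W. IgG signal at these sites was higher in R397W (111 ± 24.5 against 80.0 ± 1.07, SD, n = 2), and this mean is subject to the same scaling.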

How the results depend on the processing

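No fully covered site was called for R397W against WT Foxp3 under limma with other pseudocounts, scalings or filters, with edgeR or DESeq2, or without any 1 library (without WT Foxp3 2, limma called 643 of all 5521 sites, none of them fully covered). With the replicate number as a block limma also called 0 sites and had 19 at an unadjusted p under 0.05. The labels do not say that the numbers pair libraries, and deviations of same-numbered libraries from their group means correlated at 0.189 for Foxp3 and 0.0992 for IgG over the 938 sites. Leaving out 1 library gave 0 to 1 called sites for IgG (the Rasa3 site, without R397W IgG 2, when 826 of all sites were called, against 12 without WT IgG 1) and 0 to 1 for Foxp3 minus IgG (a Pnrc2 site, without WT IgG 1, while 182 of all sites and no fully covered one were called without WT Foxp3 2). Sites at an unadjusted p under 0.05 in the Foxp3 comparison numbered 4 to 92 without 1 library (4 lower and 27 higher without WT Foxp3 1, 75 lower and 17 higher without R397W Foxp3 1) and 30 with the lowest 25% of sites removed. The cTreg-specific Foxp3/IgG difference of 0.21 turned to -0.13 at sites with at least 10 reads in every library and -0.018 for the median site, and ran from -0.14 to 0.55 with 1 number left out. That of common sites at starts ran from -0.021 to 0.19 with 1 number left out, and was 0.24 at sites with at least 10 reads and 0.21 for the median site, both without overlap of the genotypes. That away from starts ran from -1.02 to -0.44, and that of the eTreg-specific sites from -0.68 to -0.29. The eTreg-specific to common ratio in IgG turned to -0.20 with mean log2 reads and ran from -0.068 to 0.28 without 1 library, and the cTreg-specific to common ratio in Foxp3 ran from -0.036 to 0.54. The eTreg-specific to common ratio in Foxp3 ran from -0.62 to -0.22 without 1 library. At sites with at least 10 reads in every library the IgG spread dropped to an SD of 1.55 between genotypes in number 2 and 1.43 between WT replicates, and the away minus start difference in Foxp3/IgG was -0.54. The cause of these changes was not tested. The other 131 results of comparisons and 224 results of named sites under alternatives kept their direction or, for counts and spreads, stayed near the reported value. Depth limits the precision of sites with few reads, and 83 of the 938 had a single read in some library.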
